A study of Mus musculus with 12 samples.

Results

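The Notch pathway was followed through 10 of its genes across the 12 libraries of the series: the receptors Notch1, Notch2 and Notch3, the ligands Dll1, Jag1 and Jag2, the DNA-binding factor Rbpj, and the effectors Hes1, Hey1 and Heyl. The genes were taken by symbol from the count files, which list 22310 symbols, and all 10 were among the 13540 genes that passed the filter on low counts. Activated satellite cells, the stem cells of skeletal muscle, were profiled by RNA-seq from hindlimb muscle 3 days after injury in C57BL/6 mice. Every animal, controls included, had its hindlimb muscle injured with 50 µl of 1.2% BaCl2 given over about 20 sites. The 4 groups of 3 libraries were young wild type (3 to 4 months), old wild type (22 to 28 months), young Hoxa9 knockout (3 to 4 months) and old Hoxa9 knockout (22 to 28 months). How the knockout allele was made, and how many animals stand behind a library, are not given in the sources used here. P-values therefore measure the spread between these samples, which may be partly technical.

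Notch signalling passes between touching cells. A ligand of the Delta or Jagged family on one cell binds a Notch receptor on its neighbour, which is then cut by ADAM proteases and by gamma-secretase. The freed intracellular part enters the nucleus, joins Rbpj and coactivators of the Mastermind family, and turns on genes such as the Hes and Hey repressors. In satellite cells the pathway is known for holding cells in the undifferentiated state, and Notch3 and Heyl are also well known from pericytes and vascular smooth muscle.

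A pair of promoter windows is shown because they belong to members that passed the test between genotypes: Rbpj, the factor that binds DNA, and Notch3, the receptor with the highest level. Each window runs from 250 bases before to 50 bases after the gene's start, in the RefSeq annotation of GRCm38.p6. Capitals mark TGGGAA, the core of the Rbpj binding motif, searched on both strands (TTCCCA where it lies on the opposite strand).
Rbpj, chr5:53590096-53590395, plus strand: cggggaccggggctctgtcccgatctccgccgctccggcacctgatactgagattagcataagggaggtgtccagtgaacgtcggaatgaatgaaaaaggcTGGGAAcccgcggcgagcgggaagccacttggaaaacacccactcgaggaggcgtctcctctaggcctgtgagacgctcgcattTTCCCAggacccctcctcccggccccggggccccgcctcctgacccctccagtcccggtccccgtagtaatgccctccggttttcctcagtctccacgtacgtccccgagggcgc
Notch3, chr17:32166841-32167140, minus strand: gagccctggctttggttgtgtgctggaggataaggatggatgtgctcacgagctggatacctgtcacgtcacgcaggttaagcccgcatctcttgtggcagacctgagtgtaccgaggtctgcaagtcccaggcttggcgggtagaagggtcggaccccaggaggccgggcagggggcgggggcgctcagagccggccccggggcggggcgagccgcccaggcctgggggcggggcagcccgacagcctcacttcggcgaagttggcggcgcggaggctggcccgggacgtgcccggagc
The Rbpj window held 2 matches, one starting 149 bases before the gene's start on the same strand and one 65 bases before it on the opposite strand. A second, overlapping Rbpj window in the table held 1 match, at the same site as the latter of these. The windows of Notch1, Notch2, Notch3, Dll1, Jag1 and Jag2 held none, which says only that these letters are not in those 300 bases. Of 32851 promoters of that length in the table, 25.6% held the motif at least once and 3.79% held it 2 or more times. RefSeq windows were matched for 7 of the 10 members, not for Hes1, Hey1 and Heyl.

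Depth in genes was 4193433 to 20337015 reads per library, and 32.2% to 70.8% of the reads considered by the counter lay outside genes. Hoxa9 itself stood at 7.96 to 22.5 CPM (counts scaled to a common library size) in the 6 wild-type libraries and at 4.55 to 7.21 CPM in the 6 knockout libraries. Which part of the gene the allele removes is not stated, so these reads do not test the deletion. All 10 satellite cell markers were detected, with a summed level of 6209 to 9419 CPM, against 32.6 to 87.2 CPM for 10 endothelial markers. Other lists were not scarce. The sums were 3224 to 6752 CPM for 10 fibroblast markers and 1429 to 2551 CPM for 10 pericyte and smooth muscle markers. For choroid plexus markers the sum reached 6008 CPM. These sums do not measure purity. A trend with GC content split the genotypes. For each library, the deviation from the mean level was rank-correlated with GC content across genes. This correlation was 0.226 to 0.471 in the 6 wild-type libraries and -0.525 to -0.125 in the 6 knockout libraries. Within wild type it was 0.384 to 0.471 in young and 0.226 to 0.340 in old libraries. Age in wild type is therefore not free of this trend. In knockout the ages overlapped. Genotype and this trend cannot be told apart by design, so the members' log2 fold changes between genotypes are also given from a fit with offsets for GC content. Other series-wide facts touch the knockout libraries. Lars2 took 0.484% to 25.0% of their gene reads against 0.0258% to 0.110% in wild type. Ddx3y, a Y-linked gene, stood at 125 and 150 CPM in old knockout replicates 2 and 3 and at most at 5.11 CPM elsewhere. These replicates are called the libraries with Ddx3y reads below, although other libraries held a few. Old knockout replicate 1 held 5.11 CPM.

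The Notch effector Heyl gave the main result in 3 of the 4 group comparisons. It fell 1.75-fold with age in wild type, and it was 2.31-fold lower in knockout than in wild type in young mice and 1.44-fold lower in old mice. Rbpj was 1.43-fold higher in knockout in young mice and 1.53-fold higher in old mice, and Notch3 was 1.47-fold lower in knockout in young mice. No other member passed the threshold, which was 0.05 for the p of edgeR's quasi-likelihood test after Benjamini-Hochberg adjustment over all 13540 genes. The knockout calls of Rbpj and Notch3, and that of Heyl in old mice, were lost with GC offsets. Both Heyl calls against young wild type (age, and knockout in young mice) were kept with GC offsets.

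**Figure D1:**
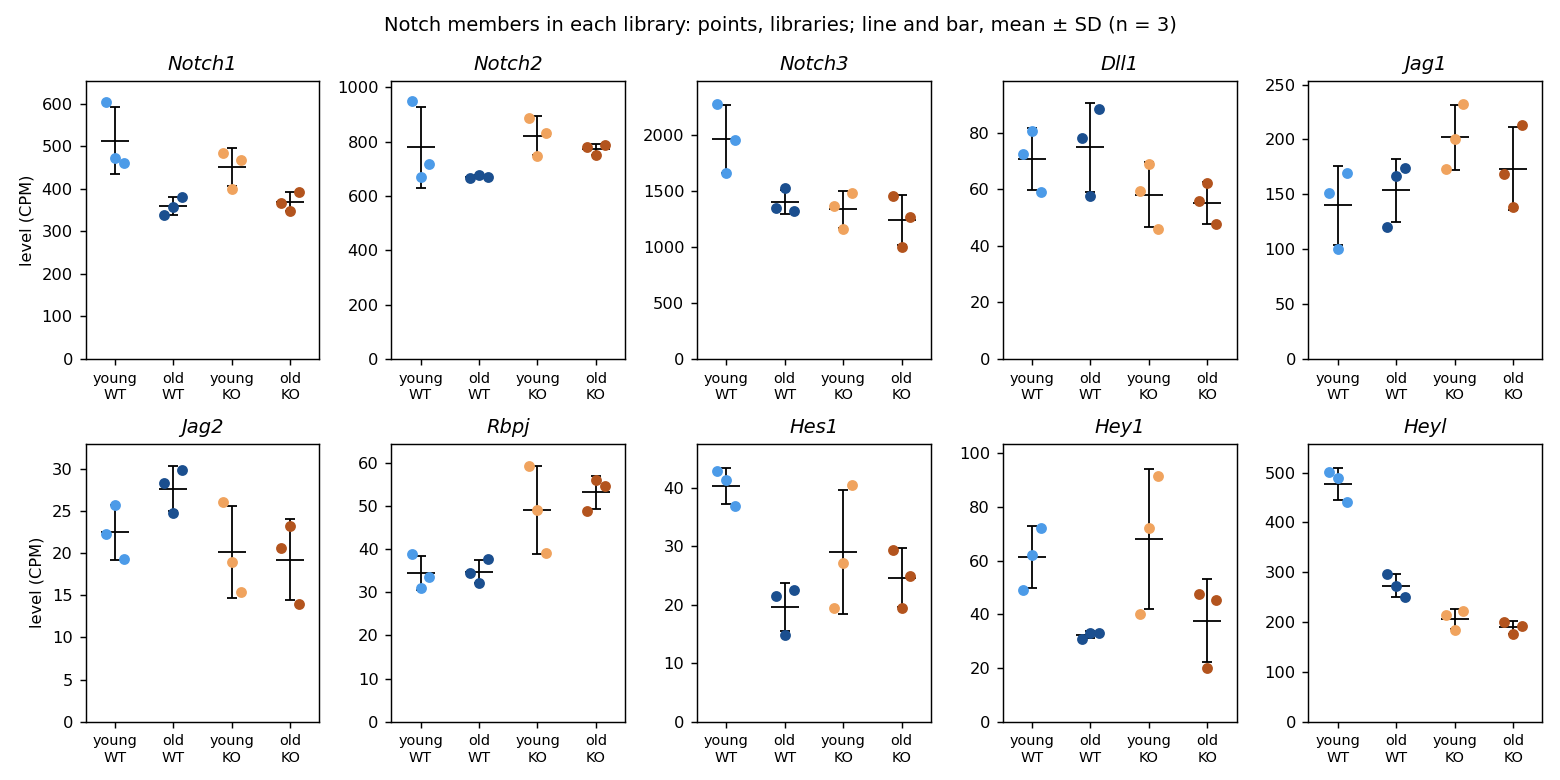
Level of each of the 10 Notch genes in CPM (linear vertical axes from 0, 1 panel per gene) in the 4 groups on the horizontal axes, with 1 point per library and a line and bar for the mean ± SD (n = 3). Heyl sits at 440 to 502 CPM in young wild type and at most at 296 CPM in the other 9 libraries, and Rbpj is highest in the knockout groups.

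Per kilobase of transcript, Notch3 was the most abundant member, at a mean of 186 CPM per kb over the 12 libraries (range 126 to 285). Notch2 followed at 72.5 CPM per kb (63.3 to 90.4), and the ranges of these 2 receptors did not overlap. Heyl came next at 63.2 CPM per kb (38.8 to 111), then Notch1 at 44.5 (35.6 to 63.5) and Jag1 at 29.8 (17.8 to 41.4) on the same scale. Ranges of neighbours from Notch2 down to Jag1 overlapped. Within each library, however, Notch2 lay above Notch1 and Notch1 above Jag1. The place of Heyl varied by group: it lay above Notch2 in every young wild-type library and below it in every knockout library. Hey1 stood at 20.6 CPM per kb (8.20 to 37.8), Hes1 at 19.3 (10.2 to 29.1) and Dll1 at 18.1 (12.8 to 24.7), all with overlapping ranges. Rbpj at 7.81 CPM per kb (5.65 to 10.8) lay below every library's Dll1 value. Jag2 was the least abundant at 4.39 CPM per kb (2.73 to 5.86), and its range touched that of Rbpj.

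**Figure D2:**
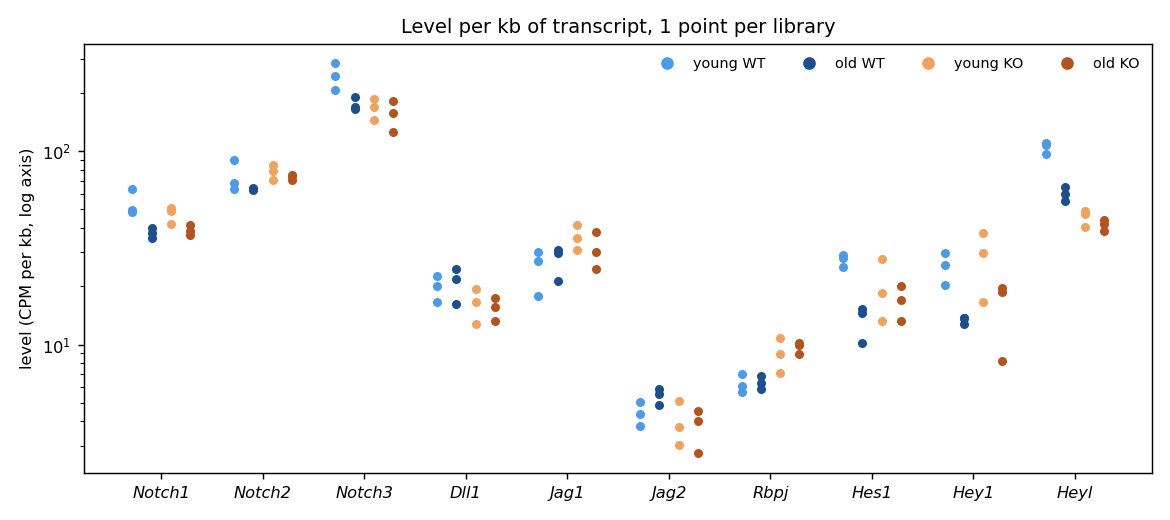
Level of each Notch gene per kilobase of transcript (vertical axis, CPM per kb, log scale), with 1 point per library coloured by group. Notch3 lies above all other members in every library, at 126 to 285 CPM per kb, and Jag2 is at 2.73 to 5.86.

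Counting error was smallest for Notch3, with 4365 to 47043 reads per library, and largest for Jag2, with 48 to 461 reads. In the reference annotation Notch1, Notch3 and Dll1 overlap noncoding genes on the opposite strand and Notch2 overlaps one on its own strand, none of which the count files list. The library kit keeps the strand, but the sources used here do not say whether the authors counted by strand, so reads of those neighbours can be included in the values of these 4 members.

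Among the receptors, Notch3 differed between genotypes in young mice. It stood at 2282, 1666 and 1956 CPM in young wild type (mean 1968 ± 308, SD, n = 3) and at 1365, 1165 and 1486 CPM in young knockout (1339 ± 162). All 3 young knockout libraries lay below all 3 young wild-type libraries. By edgeR's quasi-likelihood test the log2 fold change was -0.56 ± 0.17 (SE), and the adjusted p was 0.0353. With GC offsets the log2 fold change was -0.10 and the adjusted p 0.779, and when only the groups compared were fitted the adjusted p was 0.116. The call was kept in 5 of the 12 fits that left out 1 library, with log2 fold changes of -0.67 to -0.41 over the 12. Notch3 has a GC content of 59.6%, above all but Jag2 among the members.

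In old wild type Notch3 stood at 1353, 1527 and 1328 CPM (1402 ± 108), again below all young wild-type libraries. The log2 fold change with age was -0.49 ± 0.17, with an adjusted p of 0.200, so this difference did not pass the threshold. Old knockout libraries had 1458, 1006 and 1268 CPM (1244 ± 227), which overlapped both old wild type and young knockout. The log2 fold changes were -0.17 between genotypes in old mice and -0.11 with age in knockout, neither past the threshold. Between genotypes in old mice the sign turned with GC offsets, to 0.18.

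Notch1, a receptor known for its role in satellite cell maintenance, was at 603, 473 and 461 CPM in young wild type (512 ± 78.4) and at 338, 358 and 380 CPM in old wild type (358 ± 21.1). The groups did not overlap, but the log2 fold change of -0.52 ± 0.14 had an adjusted p of 0.0926. In DESeq2 the same difference had an adjusted p of 0.0153. In edgeR's test it was 0.133 with GC offsets, 0.278 with library size alone and 0.144 with a replicate block. Young knockout libraries had 484, 399 and 467 CPM (450 ± 44.8) and old knockout libraries 366, 348 and 393 CPM (369 ± 22.4). Here too every old library lay below every young one, with a log2 fold change of -0.29 ± 0.14 and an adjusted p of 0.530. Between genotypes the Notch1 groups overlapped in young and in old mice, and in young mice the sign depended on the GC offsets, at a log2 fold change of -0.19 without them and 0.22 with them.

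Notch2, which cooperates with Notch1 in these cells, had log2 fold changes of -0.22 to 0.20 over the 4 group comparisons. Young wild type had 949, 669 and 718 CPM (778 ± 150), and old wild type had 665, 677 and 669 CPM (670 ± 6.09). Young knockout had 887, 747 and 832 CPM (822 ± 70.9), and old knockout had 779, 750 and 789 CPM (772 ± 20.1). Old knockout lay above old wild type in all libraries, at a log2 fold change of 0.20 ± 0.14 with an adjusted p of 0.347, and with GC offsets the log2 fold change was 0.44 (adjusted p 0.0995). In the other 3 comparisons the Notch2 groups overlapped. As a share of the 3 receptors' summed level per kb, Notch3 made up 65.7% ± 1.62 in young wild type, 63.2% ± 1.81 in old wild type, 57.0% ± 1.83 in young knockout and 57.7% ± 4.00 in old knockout (SD, n = 3). Notch2 made up 19.8% ± 0.838 and 23.1% ± 0.939 in young and old wild type, and 26.8% ± 1.35 and 27.7% ± 2.72 in young and old knockout. These shares describe the libraries and were not tested. They combine genes whose GC content differs, 59.6% for Notch3 and 53.6% for Notch2, so they carry the GC trend as well.

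None of the 3 ligands passed the threshold in any comparison. Jag1, a Jagged ligand, came nearest between genotypes in young mice. It stood at 152, 99.98 and 169 CPM in young wild type (140 ± 35.9) and at 173, 201 and 232 CPM in young knockout (202 ± 29.8). The groups did not overlap, and the log2 fold change of 0.52 ± 0.22 had an adjusted p of 0.102. With GC offsets the log2 fold change was 0.55 and the adjusted p 0.131, so the offsets hardly moved this difference. Old wild type had 120, 167 and 174 CPM of Jag1 and old knockout 168, 139 and 214 CPM, which overlapped.

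Dll1, a Delta ligand, was at 72.3, 80.5 and 59.1 CPM in young wild type. Old wild type had 78.3, 57.7 and 88.5 CPM. Levels in young knockout were 59.4, 69.1 and 46.0 CPM, and in old knockout 55.7, 62.2 and 47.6 CPM. The groups overlapped in every comparison, and the log2 fold change that was largest in size was -0.43 ± 0.19 for knockout in old mice, with an adjusted p of 0.131, and with GC offsets it was -0.15. For Jag2, a second Jagged ligand, young wild type had 22.3, 25.8 and 19.3 CPM and old wild type had 28.4, 24.7 and 29.9 CPM. Its young knockout libraries had 26.1, 18.997 and 15.4 CPM and its old knockout libraries 20.6, 23.2 and 13.9 CPM. Old knockout lay below old wild type in all libraries, with a log2 fold change of -0.50 ± 0.22 and an adjusted p of 0.124, and with GC offsets the log2 fold change was -0.16. Jag2 has the highest GC content of the members, 61.9%.

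Rbpj, the DNA-binding partner of the Notch intracellular domain, was the only member past the threshold with a higher level. It stood at 38.7, 31.0 and 33.5 CPM in young wild type (34.4 ± 3.93) and at 34.5, 32.2 and 37.6 CPM in old wild type (34.8 ± 2.71). The knockout levels were 59.3, 48.9 and 39.0 CPM in young mice (49.1 ± 10.1) and 48.8, 55.9 and 54.6 CPM in old mice (53.1 ± 3.79). All 6 knockout libraries lay above all 6 wild-type libraries, the lowest of them (39.0 CPM) by a small margin over the highest wild-type library (38.7 CPM).

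For Rbpj the log2 fold change between genotypes was 0.52 ± 0.16 in young mice (adjusted p 0.0332) and 0.61 ± 0.16 in old mice (adjusted p 0.0206) in edgeR's quasi-likelihood test. With age it was 0.01 ± 0.16 in wild type and 0.11 in knockout. With GC offsets the log2 fold changes between genotypes were 0.23 (adjusted p 0.453) and 0.41 (adjusted p 0.151), neither past the threshold. Rbpj has the lowest GC content of the members, 43.7%, and its window and that of Notch3 printed above had 64.7% and 70% GC. Of the 12 fits that left out 1 library, 7 kept the Rbpj call in young mice and 8 kept that in old mice. The log2 fold changes over these fits were 0.35 to 0.69 in young and 0.56 to 0.69 in old mice. Without young knockout replicate 1, which had the highest Rbpj level, the log2 fold change in young mice was 0.35 (adjusted p 0.137).

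Heyl, a Hey-family repressor induced by Notch, had the most separated levels of the effectors. In young wild type it stood at 502, 489 and 440 CPM (477 ± 32.7). In old wild type it stood at 296, 273 and 250 CPM (273 ± 23.2), in young knockout at 215, 184 and 222 CPM (207 ± 20.2) and in old knockout at 201, 176 and 191 CPM (189 ± 12.5). Young wild type lay above every other library, old wild type above both knockout groups, and the 2 knockout groups overlapped.

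With age in wild type the log2 fold change of Heyl was -0.81 ± 0.12 (adjusted p 0.0094, edgeR's quasi-likelihood test), and with GC offsets it was -0.80 (adjusted p 0.00661). With library sizes alone as scaling it was -0.72 (adjusted p 0.0541), and without old wild type replicate 2 and old knockout replicate 3, the libraries richest in reads outside genes, it was -0.79 (adjusted p 0.144). Between genotypes in young mice the log2 fold change was -1.21 ± 0.13 (adjusted p 0.00027) and with GC offsets -0.86 (adjusted p 0.00421). It passed the threshold in all 12 fits that left out 1 library, at -1.26 to -1.07. Both comparisons use the young wild-type libraries, so they are not independent of each other.

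Between genotypes in old mice the log2 fold change of Heyl was -0.53 ± 0.12 with an adjusted p of 0.0138. With GC offsets it was -0.23 (adjusted p 0.250). Without old knockout replicates 2 and 3, the libraries with Ddx3y reads, which leaves 1 library in that group, it was -0.44 (adjusted p 0.282). With age in knockout it was -0.13 ± 0.12 (adjusted p 0.783). The interaction, which subtracts the change with age in wild type from that in knockout, was 0.68 ± 0.18, with an unadjusted p of 0.00189 and an adjusted p of 0.296, so a difference in the age effect between genotypes did not pass the threshold.

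Hes1, the classical Notch-induced repressor, was at 42.8, 41.4 and 36.9 CPM in young wild type (40.3 ± 3.08) and at 21.5, 14.9 and 22.5 CPM in old wild type (19.6 ± 4.11). The groups did not overlap and the difference was 2.05-fold, at a log2 fold change of -1.04 ± 0.24 with an adjusted p of 0.0602. That is just outside the threshold: it passed in DESeq2 (adjusted p 0.00562) and with GC offsets (adjusted p 0.0479). It did not pass in edgeR's test with library size alone (adjusted p 0.0816) or with a replicate block (adjusted p 0.0748). Young knockout was spread widely, at 19.5, 27.1 and 40.5 CPM, and old knockout stood at 29.4, 19.5 and 25.0 CPM, with a log2 fold change with age of -0.22 ± 0.25 (adjusted p 0.815). The interaction for Hes1 was 0.81 ± 0.35, with an adjusted p of 0.482.

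Hey1, a second Hey repressor, was lower in old libraries of both genotypes without passing the test. It stood at 49.2, 62.3 and 72.2 CPM in young wild type and at 31.0, 33.2 and 33.2 CPM in old wild type, which did not overlap. The log2 fold change was -0.92 ± 0.33 with an adjusted p of 0.231. In young knockout it stood at 40.1, 72.3 and 91.7 CPM and in old knockout at 47.8, 19.9 and 45.3 CPM, which overlapped, at a log2 fold change of -0.87 ± 0.34 with an adjusted p of 0.444. Of the 3 effectors' summed level per kb, Heyl made up 66.5% ± 2.63 in young and 69.2% ± 3.24 in old wild type, against 49.9% ± 9.99 in young and 57.0% ± 6.38 in old knockout (SD, n = 3, not tested).

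**Figure D3:**
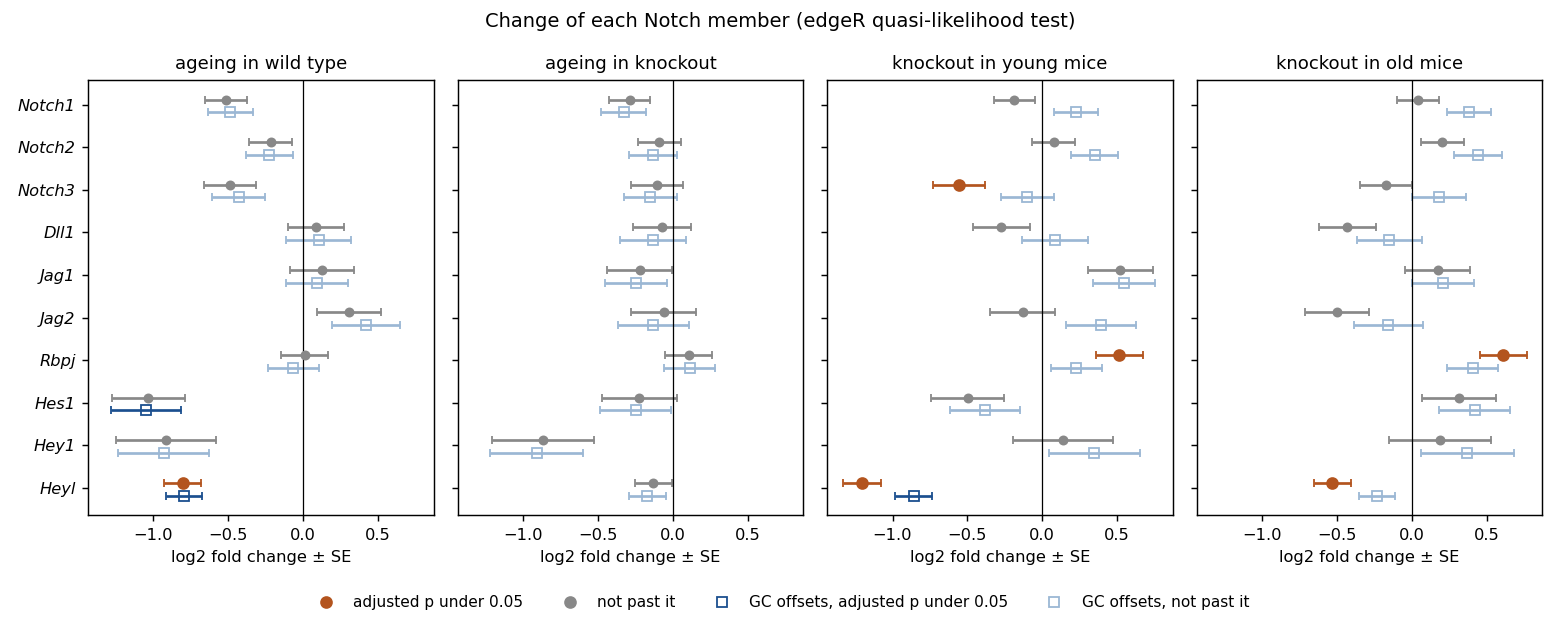
Log2 fold change ± SE (horizontal axes) of each Notch gene (vertical axis) in the 4 group comparisons, 1 per panel, with filled circles for the fit without GC correction and open squares for GC offsets. Orange circles and dark blue squares are past an adjusted p of 0.05. Heyl in young mice moves from -1.21 to -0.86 with GC offsets, and Notch3 from -0.56 to -0.10.

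Counted by comparison, ageing in wild type gave 1 of 10 members lower (Heyl) and 0 higher, where 0.805% of all genes tested were called lower. The median log2 fold change of the members was -0.35, against 0.01 over all genes. All 3 effectors and 2 of the 3 receptors, Notch1 and Notch3, had old libraries wholly below young ones, as did 13.8% of all genes, and no member had them wholly above. The other 5 members overlapped. In DESeq2, 3 members passed (Heyl, Hes1 and Notch1), and a fit of the wild-type libraries alone called 4 (Heyl, Hes1, Hey1 and Notch1). Both of these fits also called more genes in all, 462 and 913 in either direction, against 144 in the reported fit. In bulk samples, fewer cells of a type and less RNA per cell cannot be told apart.

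Ageing in knockout gave 0 of 10 members past the threshold in edgeR's quasi-likelihood test, where 0.0148% of all genes were called in either direction. At an unadjusted p under 0.05 there was 1 member, Hey1, where 9.72% of all genes were, and DESeq2 called 0. The members' median log2 fold change was -0.12, against -0.01 over all genes, and 9 of 10 were negative, where 51% of all genes were. Only Notch1 had separated groups, where 5.22% of all genes were wholly lower in old libraries. The interaction likewise gave 0 of 10 members in edgeR, where 0.0148% of all genes were called, and 0 in DESeq2. At an unadjusted p under 0.05 there were 2 members (Heyl and Hes1), where 9.72% of all genes were.

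Knockout in young mice gave 2 of 10 members lower (Heyl and Notch3), where 10% of all genes were called lower, and 1 higher (Rbpj), where 10.9% were called higher. Knockout in old mice gave 1 lower (Heyl), where 7.21% were called lower, and 1 higher (Rbpj), where 9.52% were called higher. Counts of 1 or 2 among 10 members are near these background shares. With GC offsets the members called were 1 in young mice (Heyl) and 0 in old mice. The members' median log2 fold changes were -0.16 in young and 0.11 in old mice, against -0.02 and -0.01 over all genes. In young mice 2 members had knockout libraries wholly above wild type (Rbpj and Jag1) and 2 wholly below (Heyl and Notch3), where 16% and 19.6% of all genes did. In old mice Rbpj and Notch2 lay wholly above and Heyl and Jag2 wholly below, where 21.6% and 20.4% of all genes did.

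**Figure D4:**
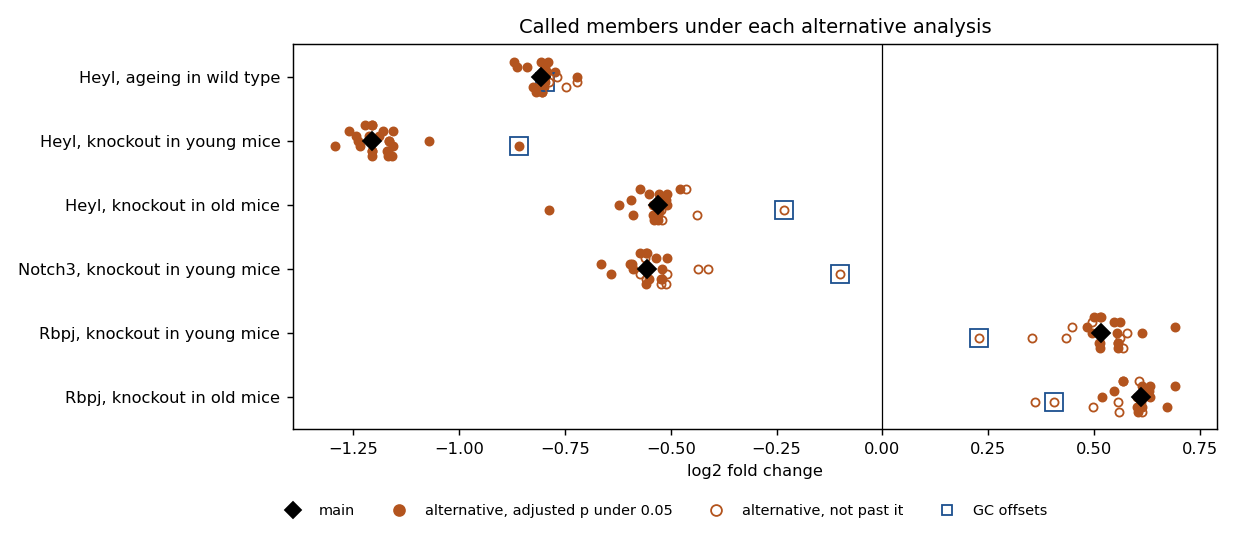
Log2 fold change (horizontal axis) of the 6 member and comparison pairs past the threshold (vertical axis), with a black diamond for the reported fit and 1 circle per alternative analysis, filled where the adjusted p was under 0.05 and open otherwise. Blue squares mark GC offsets, and for Heyl in young mice every circle is filled.

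Other genes of the pathway were taken from lists of 60 genes, of which 51 were tested. With age none passed in either genotype in edgeR's quasi-likelihood test, and the median log2 fold change was -0.13 in wild type and -0.15 in knockout. DESeq2 called 1 of them with age in wild type, Bhlhe40, a repressor related to the Hes family, with wild-type levels of 187 ± 35.8 CPM in young mice and 104 ± 18.9 CPM in old mice. In young mice 6 of the 51 were higher and 7 lower in knockout, near the 10.9% and 10% of all genes called in those directions. Among the proteases and their partners, Adam17, which sheds receptors and ligands, rose by 0.53 on the log2 scale, Aph1b, a gamma-secretase subunit, rose by 0.79, and Furin, which processes the receptor precursor, fell by 0.92. Poglut1, which adds glucose to the receptors, rose by 0.60, and Mib1, the ubiquitin ligase that drives ligand uptake, rose by 0.43.

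Among regulators in young mice, Numbl, related to the Notch inhibitor Numb, fell by 0.48 on the log2 scale, and Tle3, a Groucho-type corepressor, fell by 0.65. In old mice 4 of the 51 were higher and 5 lower in knockout, near the 9.52% and 7.21% of all genes. Aph1b rose by 1.12 on the log2 scale, Adam17 by 0.53, and Kat2b, an acetyltransferase that serves as a coactivator, by 0.74. Dtx3, of the Deltex family of Notch regulators, fell by 0.76, and Numbl fell by 0.53. With GC offsets 0 of the 51 passed in young mice and 3 in old mice (Aph1b, Kat2b and Ctbp1, all higher). Without the old knockout libraries with Ddx3y reads, 0 passed in old mice. Receptors and ligands outside the 10 members were scarce: Notch4 stood at 2.98 ± 1.66 CPM in young wild type.

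Genes known as targets of Notch and Rbpj in satellite cells were followed through a list of 6. With age in wild type Pax7, the transcription factor that marks these cells, and Col6a1 and Col6a2, which encode collagen VI chains, fell. Of the 6, 3 passed and all 6 were negative, with a median log2 fold change of -0.77. Over all genes 0.805% were called lower and 49.1% were negative. Wild-type levels of Pax7 were 366 ± 31.9 CPM in young mice and 221 ± 20.3 CPM in old mice, with a log2 fold change of -0.72 ± 0.14 and an adjusted p of 0.0271. Col6a2 stood at 476 ± 61.8 and 211 ± 24.4 CPM, with a log2 fold change of -1.18 ± 0.14 and an adjusted p of 0.00262. Without the pair of libraries richest in reads outside genes 0 of 6 passed.

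In knockout 0 of these 6 passed with age, and DESeq2 called 0. In young mice 3 of 6 were lower in knockout: Pax7 at 232 ± 15.3 CPM, Col6a2 at 289 ± 20.3 CPM, and Col5a3, a collagen V chain, at 488 ± 78.5 CPM against 993 ± 56.0 CPM in wild type. In old mice only Col5a3 was lower, at a log2 fold change of -0.88 ± 0.16. Over all genes 10% were called lower in knockout in young mice and 7.21% in old mice. With GC offsets 0 of 6 passed in either comparison of genotypes. The interaction was positive for 6 of 6 with 0 past the threshold, where 49.3% of all genes were negative. Ageing in wild type, knockout in young mice and the interaction share the young wild-type libraries, so they are not independent of each other.

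The collagen genes are also expressed by fibroblasts, whose markers moved with age as well. In wild type the sum of 10 fibroblast markers was 5963 to 6752 CPM in young mice and 3224 to 3707 in old mice. Col3a1 and Col1a1, themselves collagen genes, made up most of it in both groups. Of the 10 markers 8 were negative, and 3 passed as lower (Col1a1, Col3a1 and Cd248). Pdgfra and Ly6a were positive, at log2 fold changes of 0.20 and 0.74, neither past the threshold. For 10 pericyte and smooth muscle markers, none at 0 in any library, the sum was 1821 to 2426 CPM in young mice and 1429 to 1709 CPM in old mice. One of them passed (Kcnj8, lower), 9 were negative, and the median log2 fold change was -1.35. Rgs5, a pericyte marker, ranged from 143 to 358 CPM in young mice and from 44.2 to 52.1 CPM in old mice. For 9 macrophage markers the sum was 22.0 to 40.0 CPM in young mice and 112 to 129 CPM in old mice, with 0 past the threshold and 9 of 9 positive. Their part in the lower Heyl of old wild type was not tested.

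In young knockout the fibroblast sum was 4522 to 5698 CPM, wholly below young wild type. Of the 10 markers 2 were lower (Col1a1 and Cd248) and 1 higher (Dcn). The list was evenly split, with 5 positive, 5 negative and a median log2 fold change of 0.03. Col3a1 and Col1a1 made up most of the sum. Their means were 4163 and 1371 CPM in young wild type and 3164 and 631 CPM in young knockout. Of 10 satellite cell markers, 3 were lower there (Pax7, Itga7 and Cdh15) and 0 higher, where 10% of all genes were called lower. By sign 6 of these markers were negative and 4 positive. The pericyte and smooth muscle sum was 1658 to 2518 CPM in young knockout, overlapping young wild type, with 0 of 10 past the threshold and 7 negative. Acta2 alone made up 1001 to 1082 CPM of it. In old mice that sum was 2204 to 2551 CPM in knockout, above old wild type, with 4 of 10 markers higher and 10 of 10 positive. Fibroblast markers were higher in old knockout for 3 of 10 (Dcn, Lum and Fbln1), and 9 of 10 were positive. Tendon markers were higher in old knockout for 6 of 8, with sums of 113 to 1201 CPM against 40.2 to 55.6 CPM in old wild type. Choroid plexus markers, foreign to muscle, summed to 108 to 6008 CPM in wild type and 9.64 to 25.1 CPM in knockout, with 6 of 6 lower in both comparisons of genotypes. The part of these lists in the knockout results of the members and of the target genes was not tested.

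The genes whose levels ran most like a member's were found from log2 CPM over the 12 libraries among 11812 genes, as a description, since the libraries share the genotype and GC split. For Heyl these were Phlda1 (Pearson r 0.977), Ttyh3 (0.965) and Pex6 (0.960). Phlda1 had log2 fold changes of -0.83 ± 0.16 with age in wild type, -1.12 ± 0.16 for knockout in young mice and -0.59 ± 0.16 for knockout in old mice, all past the threshold in the fit without GC offsets. For Notch3 they were Htra3 (0.957), C130039O16Rik (0.935) and Pax7 (0.930). For Rbpj they were Tmem188 (0.985), 2510009E07Rik (0.963) and Cd47 (0.961). Cd47 had log2 fold changes of 0.59 ± 0.18 and 0.69 ± 0.18 for knockout in young and old mice in that fit. Phlda1 and Cd47 were picked by likeness over these same libraries, so like changes were built in by that choice.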

How the data were processed

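RNA was measured in 12 libraries of satellite cells, 3 in each of 4 groups defined by the labels' age and genotype. The deposited values are raw read counts by gene symbol, 1 file per library, which the authors did not normalize. TopHat, HTSeq, DESeq2 and the build mm9 are named, without versions, per the submitters' processing notes. The kit was a stranded total RNA kit with ribosomal RNA removal, per the labels' protocols. For the counting, the strand setting is not given in the sources used. The counter's summary lines were left out of library sizes and tests.

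Genes were filtered with filterByExpr, counts were scaled with trimmed-mean (TMM) factors, and 1 mean per group was fitted over all 12 libraries with the robust quasi-likelihood test of edgeR 4.0.16 in R 4.3.3 (limma 3.58.1 loaded with it). Benjamini-Hochberg adjustment ran over the 13540 genes of a comparison, with a threshold of 0.05. SE was computed as the log2 fold change over the square root of F. Differences are old minus young and knockout minus wild type. The code was tested on simulated data.

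The 10 members are all named. Of each other Notch list and of the target list up to 3 genes past the threshold were named per comparison by smallest p, otherwise at most 2 abundant ones as values, and like patterns were sought for the 3 members called most often. Bhlhe40 and Rgs5 were named after their values were seen. The members and lists were chosen with earlier results of these data known. One macrophage marker of 10 has no row under its symbol and was not used.

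Alternatives were DESeq2 1.42.0, other scalings, other filters, only the groups compared, a replicate block, offsets for GC content, leaving out each library, and leaving out libraries marked by earlier results. Length and GC content are those of a gene's longest transcript in GENCODE M21, of another build than mm9, and 92.3% of symbols matched. GC offsets were a spline per library with 5 degrees of freedom.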

Additional observations from a re-analysis of the deposited data

How the results depend on the processing

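No call changed direction under any alternative run. With age in wild type the count of members past the threshold, 1 in the reported fit, was 3 in DESeq2, 0 with library size alone, 2 with no filter on low counts, 4 when only the groups compared were fitted, 2 with GC offsets, 2 without old knockout replicates 2 and 3 (the libraries with Ddx3y reads) and 0 without old wild type replicate 2 and old knockout replicate 3 (those richest in reads outside genes). For knockout in young mice it was 3, and 1 when only the groups compared were fitted, 1 with GC offsets and 1 without the libraries richest in reads outside genes. For knockout in old mice it was 2, and 0 with GC offsets, 0 without the libraries with Ddx3y reads and 0 without those richest in reads outside genes. Leaving out 1 library gave 0 to 2 members with age in wild type, 1 to 4 for knockout in young mice and 0 to 2 for knockout in old mice, and 0 for ageing in knockout and the interaction. With age in wild type it was 0 without young wild type replicate 1, old wild type replicate 2 or old wild type replicate 3, and in old mice 0 without old wild type replicate 1 or old knockout replicate 3. Where these fits leave 1 library in a group, it is assumed to vary like the others. The causes were not tested.

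Over all genes the count past the threshold with age in wild type was 144, and 462 in DESeq2, 83 with library size alone, 913 when only the groups compared were fitted, 79 with the replicate block and 2 without the libraries richest in reads outside genes. For knockout it was 2831 in young and 2265 in old mice, and 746 and 834 with GC offsets, and in old mice 121 without the libraries with Ddx3y reads and 3 without those richest in reads outside genes. When only the groups compared were fitted it was 1536 in young mice. With no filter the median log2 fold change of all genes became 0.11 with age in wild type. For knockout in old mice that median was -0.01 in the reported fit and -0.25 with no filter. It was -0.11 with Lars2 left out of library sizes, a fit that also dropped the TMM factors. The counterpart of that fit with Lars2 kept, library size alone, gave -0.26. With library size alone in old mice Rbpj was at 0.36 (adjusted p 0.183), still above that shift, and no longer past the threshold, while Heyl was at -0.79 and Dll1 passed as lower.

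Whether replicate numbers pair the samples is not stated. Correlations of same-numbered libraries' deviations from their group means were -0.26 to 0.231 (median -0.04), with 3 of 18 over 0.1. For differently numbered libraries of different groups they were -0.345 to 0.309 (median 0.03), with 8 of 36 over 0.1. Same-numbered libraries were thus no more alike than others, which does not exclude pairing. With the replicate block, 1 member passed with age in wild type, 2 for knockout in young mice (Rbpj at an adjusted p of 0.0520) and 2 in old mice. Depth limited Jag2 most, with 48 reads in its lowest library. Dropping Lars2 from library sizes, in a fit without TMM factors, was chosen after seeing the data and changed no count of members.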
